A study of Mus musculus with 24 samples.

Results

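The genes described here are 39 targets and partners of the transcription factor ATF4 in the integrated stress response, followed through newly made RNA of mouse embryonic stem cells. The rule takes them by name and uses no measured value, but the list was chosen with earlier results of these data known. All 39 names were found among the 56941 gene lines of the table by Ensembl identifier, and all 39 passed the filter on low values that left 22309 genes for testing. Ddit3 has a second line, which held no reads in any library and was not used.

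The cells were of the E14TG2a line, grown with LIF and inhibitors of MEK and GSK3 (PD0325901 and CHIR99021). EU, a uridine analog that polymerases build into growing RNA, was present at 1 mM over a labelling time of 10, 20, 40 or 60 min. RNA carrying it was pulled down and sequenced after equal amounts of labelled Drosophila RNA had been added as a spike-in. The 3 genotypes were unmodified cells (WT), an Alkbh5 knockout (KO) and cells with Alkbh5 del-cIDR (dcIDR), in which the C-terminal disordered region of the protein is missing. ALKBH5 removes the m6A mark from RNA. Each genotype and time had 2 libraries, 24 in all. As far as the labels tell, each genotype is a single line, so genotype and line cannot be told apart. The labels do not say whether replicates were separate cultures, so the p-values measure the spread between these libraries, which may be technical.

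The integrated stress response starts when 1 of several kinases phosphorylates the translation factor eIF2. General translation then slows, while the ATF4 mRNA, whose upstream open reading frames hold translation back in unstressed cells, is read more. ATF4 pairs with C/EBP proteins and binds C/EBP-ATF response elements near genes for amino acid synthesis, amino acid transport and tRNA charging, and near regulators that feed back on the response. Because ATF4 is controlled to a large extent at translation, labelled Atf4 RNA reports on its transcription and not on the amount or activity of the protein.

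The response element is written TGATGNAA, with N for any base. It was searched on both strands of the RefSeq promoter windows (GRCm38.p6), each with 250 bases before and 50 bases after an annotated start. Windows were matched by symbol for 33 of the 39 members, not for Lars, Slc7a3, Eif4ebp1, Wars, Slc7a5 and Nars. The element was present in a window of 14 of the 33 members (42.4%), and in 1219 of 27025 genes in all (4.51%). Its core TGATG, which every TGATGNAA contains, was in windows of 54.5% of members and 42.9% of all genes. The cyclic AMP response element TGACGTCA was present for Ppp1r15a alone (3.03% of members against 2.03% of genes), and the C/EBP palindrome TTGCGCAA for no member (0.207% of genes). A match is a run of letters and not evidence of binding.

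The sequences below are the 250 bases before the start, 5′ to 3′ on the gene's strand, with TGATGNAA or its reverse complement in capitals. The first 6 belong to the members with the element whose difference between KO and WT was largest. Vldlr, Trib3 and Aars were left out because the window or a match in it lies after an annotated start. Asns was added after its values were seen, because it carries the element and was lower in KO. The windows are chr8:94386179-94386428, plus strand for Herpud1, chr3:50443614-50443863, minus strand for Slc7a11, chr2:119350992-119351241, plus strand for Chac1, chr1:191183334-191183583, minus strand for Atf3, chr7:126625471-126625720, minus strand for Nupr1, chr6:55037751-55038000, plus strand for Gars and chr6:7693210-7693459, minus strand for Asns.
Herpud1: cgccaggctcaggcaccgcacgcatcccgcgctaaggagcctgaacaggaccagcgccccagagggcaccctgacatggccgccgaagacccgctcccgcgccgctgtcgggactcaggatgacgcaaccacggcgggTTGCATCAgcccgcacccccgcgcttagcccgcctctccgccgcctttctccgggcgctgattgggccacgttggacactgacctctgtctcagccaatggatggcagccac
Slc7a11: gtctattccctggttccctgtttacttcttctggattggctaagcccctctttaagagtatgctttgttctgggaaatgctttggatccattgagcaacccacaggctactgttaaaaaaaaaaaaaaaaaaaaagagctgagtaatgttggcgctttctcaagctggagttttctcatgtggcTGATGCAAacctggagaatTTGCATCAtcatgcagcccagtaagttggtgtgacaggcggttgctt
Chac1: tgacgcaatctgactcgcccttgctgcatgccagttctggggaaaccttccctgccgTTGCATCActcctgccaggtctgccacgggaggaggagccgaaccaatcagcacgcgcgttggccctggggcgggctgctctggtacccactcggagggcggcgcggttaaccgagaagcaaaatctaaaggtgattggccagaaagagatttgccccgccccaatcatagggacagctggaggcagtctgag
Atf3: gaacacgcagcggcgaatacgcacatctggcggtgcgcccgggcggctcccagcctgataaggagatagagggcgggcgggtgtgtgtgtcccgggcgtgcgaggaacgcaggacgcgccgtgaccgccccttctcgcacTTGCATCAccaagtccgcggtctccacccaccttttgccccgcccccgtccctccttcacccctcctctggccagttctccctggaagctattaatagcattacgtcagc
Nupr1: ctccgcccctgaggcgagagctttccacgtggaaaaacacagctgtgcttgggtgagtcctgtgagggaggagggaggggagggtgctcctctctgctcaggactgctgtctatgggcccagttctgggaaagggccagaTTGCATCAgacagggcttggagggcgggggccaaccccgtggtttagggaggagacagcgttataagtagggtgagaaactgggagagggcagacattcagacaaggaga
Gars: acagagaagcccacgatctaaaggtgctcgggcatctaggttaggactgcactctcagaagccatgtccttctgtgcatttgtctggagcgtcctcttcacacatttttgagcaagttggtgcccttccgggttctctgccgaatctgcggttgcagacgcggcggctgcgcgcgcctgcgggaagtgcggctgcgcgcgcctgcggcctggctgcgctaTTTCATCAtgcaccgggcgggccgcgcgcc
Asns: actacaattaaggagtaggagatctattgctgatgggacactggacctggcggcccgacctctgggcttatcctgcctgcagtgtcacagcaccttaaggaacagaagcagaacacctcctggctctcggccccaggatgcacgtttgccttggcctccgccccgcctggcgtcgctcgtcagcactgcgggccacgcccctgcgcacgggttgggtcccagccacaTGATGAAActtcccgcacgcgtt

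In these windows the element lay on the minus strand of the gene for Herpud1, Chac1, Atf3, Nupr1 and Gars. For Asns it lay on the plus strand. Slc7a11 had 2 copies, 1 on each strand, whose first bases lie 66 and 47 bases before the start. The other distances were 112 bases for Herpud1, 193 for Chac1, 110 for Atf3, 110 for Nupr1, 30 for Gars and 23 for Asns. Herpud1, Chac1, Atf3, Nupr1 and both copies of Slc7a11 have the same letters, TTGCATCA on 1 strand or the other.

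The libraries held 3129100 to 22159507 reads over genes and 6037 to 23382 spike-in reads. The mean level of a member ran from 38.1 for Cebpb to 8467 for Eprs (reads per 11372 spike-in reads), with a median of 883. All 10 markers of embryonic stem cells had reads in every library, and their sum ran from 3599 to 4205 rpm. The 9 fibroblast markers summed to 1071 to 1583 rpm, mostly Fn1 with 3844 to 26191 reads. Col1a1, Thy1 and Pdgfrb had reads in every library, at most 40, 36 and 120, whereas Dcn, Lum and Postn were at 0 in 20, 21 and 20 libraries. Of the 9 markers of extraembryonic endoderm 8 or more had reads in all libraries of each genotype, with a sum of 545 to 870 rpm. Alkbh5 itself held 340 to 1989 reads in KO libraries, 242 to 2269 in dcIDR and 361 to 3198 in WT. Relative to the median gene it was lower by 0.61 (log2, adjusted p = 9.08e-06) in KO and by 0.47 (adjusted p = 0.000153) in dcIDR. Scaled to spike-in reads, neither fall was called (-0.29, adjusted p = 0.205, in KO and -0.29, adjusted p = 0.344, in dcIDR). Reads over the whole gene do not show which part of it was deleted, so they do not check the labels.

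Levels are given below as multiples of the median tested gene of the same library, library A (the one with more spike-in reads) before library B, and the pairs of a gene always run through 10, 20, 40 and 60 min. They are not corrected for gene length and are compared between samples of 1 gene, never between genes. A difference is on the log2 scale, as the mean over the 4 labelling times ± its standard error, from limma with Benjamini-Hochberg adjustment over all 22309 genes at a threshold of 0.05. On this scale a shift shared by all genes is removed. Scaled to spike-in reads instead, as in the deposited table, the median tested gene was higher by 0.30 in KO and by 0.15 in dcIDR than in WT. For 14 members the reads of WT at 60 min could not be divided between both libraries (for Eprs those of 2 further groups too), and that group entered the fit as 1 value.

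In the knockout, more members were higher than lower against WT. Of the 39 members 21 were higher and 3 lower, while 15 did not pass the test. Among all tested genes 14.5% were called higher and 16.0% lower. The median difference of the members was 0.20, against -0.017 for all tested genes, and 35 of the 39 differences were above 0. In 13 members the rise was 0.4 or more, led by Herpud1, Slc7a11, Mthfd2, Vldlr, Chac1 and Atf3. The share of all tested genes with such a rise was not counted. Relative to the median gene of their chromosome, Herpud1 and Mthfd2 stood at 0.63 and 0.45, and Slc7a5, Aars and Gars at 0.30, 0.23 and 0.17. All 13 were also called higher on the spike-in scale. That scale adds the same amount to the KO difference of every gene, so those calls are not independent of the first. On that scale 24 members were higher and none was lower, with 22.0% and 2.64% of all genes.

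**Figure D1:**
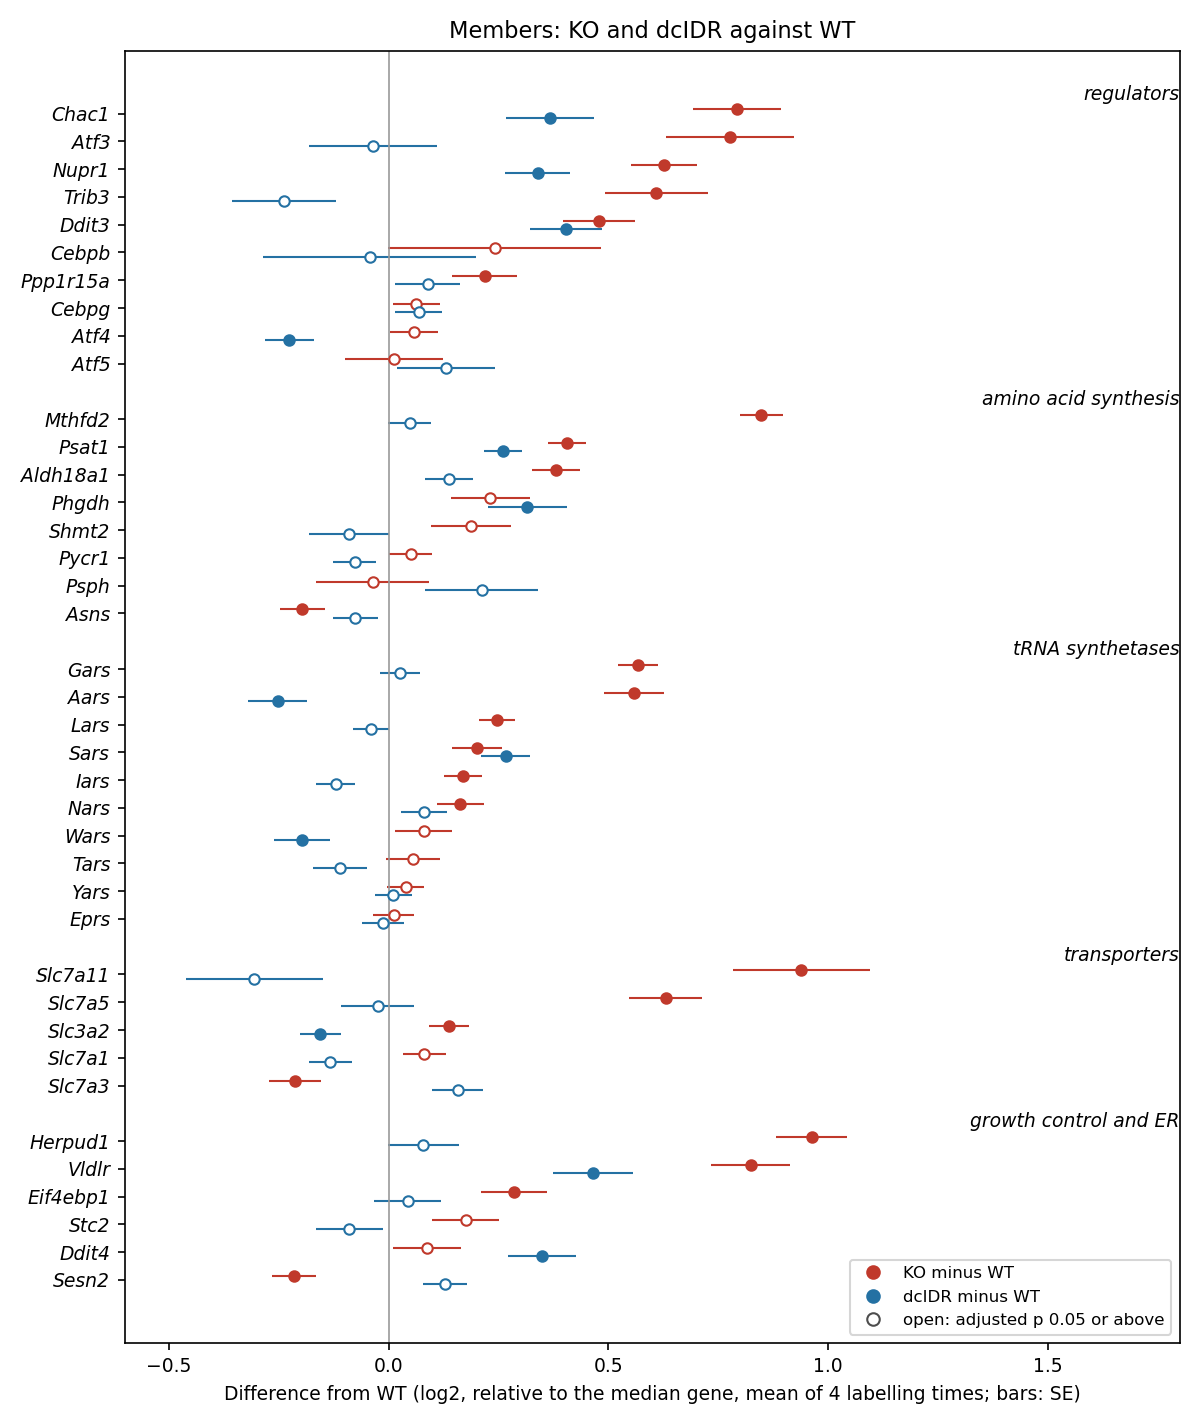
Difference from WT on the log2 scale relative to the median gene (x axis) for each of the 39 members (y axis, grouped by role), as the mean over 4 labelling times with its SE as bars. Red circles are KO and blue circles dcIDR, and filled circles passed the adjusted p of 0.05. In KO 21 members lie right of 0 with filled circles and 3 left of it, and in dcIDR 8 and 4.

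Among the 10 regulators, 6 were higher in KO and none was lower. Atf4 itself was not among them. Atf4 in WT stood at 22.4 and 25.1, then 28.4 and 25.8, then 27.7 and 24.8, and last 26 (1 value for the pair). Atf4 in KO stood at 25.8 and 24, then 28.2 and 28.3, then 27.6 and 26.3, and last 26.1 and 28.2. Atf4 in dcIDR stood at 19.8 and 19.2, then 22.2 and 19.5, then 23.9 and 20.9, and last 26.3 and 25.5. The KO and WT values overlapped at most times, whereas 3 of the 4 dcIDR pairs, those at 10, 20 and 40 min, lay below both WT libraries. The KO difference was 0.057 ± 0.055 (adjusted p = 0.485) and the dcIDR difference -0.23 ± 0.055 (adjusted p = 0.00915). On the spike-in scale that dcIDR difference was -0.048 (adjusted p = 0.877), and the call was also lost with quantile normalization (adjusted p = 0.0536) and with no filter on low levels (adjusted p = 0.244).

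Ddit3, which encodes the transcription factor CHOP, rose in both mutants. Ddit3 in WT stood at 2.73 and 2.53, then 3.43 and 3.6, then 3.08 and 3.2, and last 2.51 and 2.77. Ddit3 in KO stood at 3.7 and 3.03, then 3.8 and 4.34, then 5.52 and 4.33, and last 4.22 and 4.44. Ddit3 in dcIDR stood at 2.7 and 3.64, then 3.57 and 3.68, then 5.3 and 4.79, and last 4.66 and 3.57. In KO both libraries lay above both WT libraries at each of the 4 times, and in dcIDR at 40 and 60 min. The difference was 0.48 ± 0.082 (adjusted p = 0.000461) in KO and 0.40 ± 0.082 (adjusted p = 0.00245) in dcIDR, which is 1.39 and 1.32 times the WT level. A direct comparison of both mutants gave -0.075 ± 0.082 (adjusted p = 0.492). Mars, a tRNA synthetase gene, overlaps 1.23% of the Ddit3 span on the opposite strand in the GENCODE vM21 annotation. The second Ddit3 gene model, whose line held no reads, overlaps 53.0% of that span on the same strand.

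Atf3, another basic leucine zipper transcription factor, rose in KO. Atf3 in WT stood at 0.719 and 0.474, then 0.855 and 0.7, then 0.841 and 0.674, and last 0.73 and 0.564. Atf3 in KO stood at 0.976 and 0.802, then 0.963 and 0.908, then 1.78 and 1.34, and last 1.43 and 1.52. Atf3 in dcIDR stood at 0.332 and 0.648, then 0.606 and 0.454, then 0.792 and 0.902, and last 1.1 and 0.839. KO libraries lay above the WT pair at all 4 times, and dcIDR libraries were below WT at 20 min and above or mixed with it later. The KO difference was 0.78 ± 0.15 (adjusted p = 0.000964) and that of dcIDR -0.035 ± 0.15 (adjusted p = 0.891).

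Trib3, a pseudokinase that binds ATF4 and dampens its activity, rose in KO. Trib3 in WT stood at 1.01 and 1.08, then 1.09 and 1.35, then 1.17 and 1.4, and last 1.35 and 1.29. Trib3 in KO stood at 1.43 and 1.59, then 1.44 and 1.4, then 2.31 and 2.06, and last 2.29 and 2.67. Trib3 in dcIDR stood at 1.25 and 0.618, then 0.821 and 1.02, then 1.07 and 1.1, and last 1.22 and 1.3. All 8 KO values were above every WT value. The difference was 0.61 ± 0.12 (adjusted p = 0.00121) in KO and -0.24 ± 0.12 (adjusted p = 0.161) in dcIDR. At 10 min the 2 dcIDR libraries stood apart, A above both WT libraries and B the lowest of all 24. Without library A the dcIDR difference was -0.37 (adjusted p = 0.0025), past the threshold.

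Chac1, whose enzyme breaks down glutathione, rose in both mutants. Chac1 in WT stood at 0.689 and 0.658, then 1.05 and 0.65, then 0.643 and 0.548, and last 0.442 and 0.385. Chac1 in KO stood at 1.04 and 0.98, then 1.05 and 0.743, then 0.971 and 1.12, and last 1.22 and 1.42. Chac1 in dcIDR stood at 0.654 and 0.677, then 0.815 and 0.716, then 0.936 and 0.885, and last 0.876 and 0.762. In WT the 60 min libraries were the lowest of all, and in KO the highest. The KO difference was 0.79 ± 0.10 (adjusted p = 3.69e-05) and the dcIDR difference 0.37 ± 0.10 (adjusted p = 0.015). The raw depth behind these values was 24 to 237 reads in WT and KO and 22 to 188 in dcIDR.

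Nupr1, a small chromatin-associated stress protein, rose in both mutants too. Nupr1 in WT stood at 2.58 and 2.39, then 2.98 and 4.05, then 2.32 and 2.02, and last 1.8 and 1.64. Nupr1 in KO stood at 3.32 and 3.09, then 4.16 and 3.9, then 4.7 and 3.96, and last 3.27 and 3.28. Nupr1 in dcIDR stood at 3.86 and 3.06, then 2.83 and 2.91, then 3.2 and 2.89, and last 2.58 and 2.92. The WT values spread widely and fell from 20 to 60 min, and KO and dcIDR stood above both WT libraries at 10, 40 and 60 min. The difference was 0.63 ± 0.075 (adjusted p = 2.23e-05) in KO and 0.34 ± 0.075 (adjusted p = 0.00417) in dcIDR.

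Ppp1r15a encodes GADD34, the phosphatase subunit that reverses eIF2 phosphorylation. It was higher in KO by 0.22 ± 0.074 (adjusted p = 0.0385), a call that was lost without any 1 of 13 libraries and with no filter (adjusted p = 0.0736), and stood at 0.089 in dcIDR (adjusted p = 0.422). Its span overlaps Tulp2 on the opposite strand by 21.4%. The C/EBP partners and Atf5 did not pass the test in either mutant. For Cebpg the differences were 0.063 in KO and 0.068 in dcIDR. Atf5 had 0.012 and 0.13, and Cebpb 0.24 and -0.043. Cebpb had the largest standard error of the set, 0.24, and 60.4% of its span overlaps Tmem189 on the other strand.

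**Figure D2:**
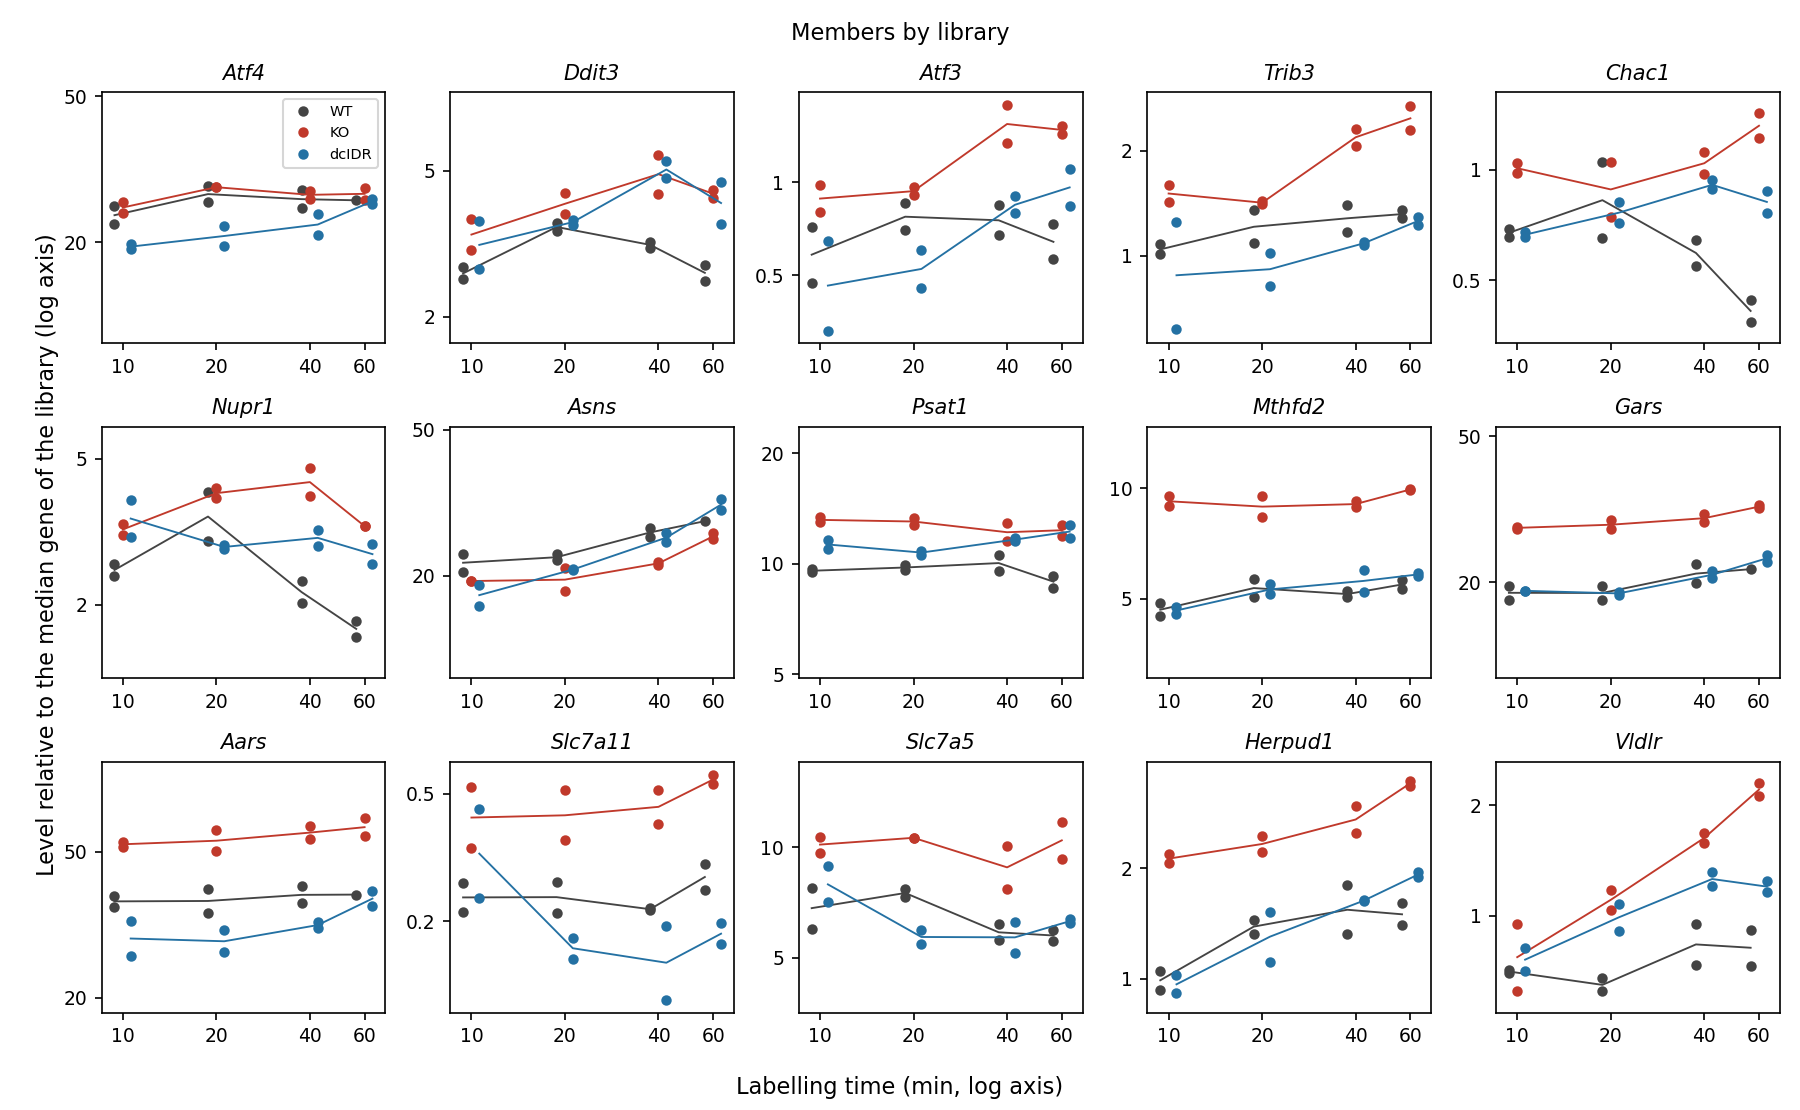
Level relative to the median gene of the library (y axis, log) against labelling time in min (x axis, log) for 15 members. Each point is 1 library, or 1 pair where its reads could not be divided, and lines join the geometric means of WT (dark grey), KO (red) and dcIDR (blue). KO points lie above all WT points for Trib3, Psat1, Mthfd2, Gars, Aars, Slc7a11 and Herpud1.

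The enzymes of amino acid and one-carbon synthesis were split: 3 of 8 were higher in KO and 1 was lower. Mthfd2, a mitochondrial enzyme that oxidises folate-bound one-carbon units, had the smallest p of the set. Mthfd2 in WT stood at 4.86 and 4.47, then 5.67 and 5.04, then 5.04 and 5.25, and last 5.63 and 5.3. Mthfd2 in KO stood at 9.51 and 8.92, then 9.53 and 8.32, then 9.2 and 8.9, and last 9.97 and 9.86. Mthfd2 in dcIDR stood at 4.73 and 4.55, then 5.46 and 5.13, then 5.99 and 5.21, and last 5.75 and 5.89. The 2 groups did not overlap, with KO at 8.32 or more and WT at 5.67 or less. The KO difference was 0.85 ± 0.048 (adjusted p = 2.65e-08), 1.8 times the WT level. In dcIDR it was 0.048 ± 0.048 (adjusted p = 0.515).

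Psat1, the aminotransferase of serine synthesis, rose in both mutants. Psat1 in WT stood at 9.67 and 9.47, then 9.93 and 9.61, then 10.6 and 9.54, and last 9.28 and 8.61. Psat1 in KO stood at 13 and 13.4, then 13.4 and 12.7, then 11.5 and 12.9, and last 11.9 and 12.8. Psat1 in dcIDR stood at 11 and 11.6, then 10.6 and 10.9, then 11.5 and 11.8, and last 11.7 and 12.8. KO values were above every WT value, and the dcIDR pair was above the WT pair at each of the 4 times. The difference was 0.41 ± 0.043 (adjusted p = 8.04e-06) in KO and 0.26 ± 0.043 (adjusted p = 0.000599) in dcIDR, and dcIDR minus KO was -0.15 ± 0.043 (adjusted p = 0.0135), a call lost without the 10 min libraries (adjusted p = 0.082). Scaled to spike-in reads, the dcIDR difference was 0.44 (adjusted p = 0.0969).

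The other enzymes of the serine pathway were less marked. Phgdh, the dehydrogenase of its first step, was higher in dcIDR by 0.32 ± 0.09 (adjusted p = 0.0192), a call lost without WT library B at 20 or at 40 min and without all 10 min libraries (0.24, adjusted p = 0.136). In KO it stood at 0.23 ± 0.09 (adjusted p = 0.0673). Psph, the phosphatase of its last step, had -0.036 in KO and 0.21 in dcIDR and was called in neither. Shmt2, which moves a carbon from serine to folate in mitochondria, had 0.19 ± 0.091 (adjusted p = 0.144) in KO, and was called there only on the spike-in scale (0.50, adjusted p = 0.0178). Of the 2 enzymes of proline synthesis, Aldh18a1 rose in KO by 0.38 ± 0.054 (adjusted p = 9.61e-05), with KO at 4.43 to 5.54 (median 4.74) and WT at 3.37 to 4.02 (median 3.75) times the median gene. The other, Pycr1, had 0.051 and was not called.

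Asns, which encodes asparagine synthetase and is a widely used readout of ATF4, went the other way. Asns in WT stood at 20.5 and 23, then 22.9 and 22.1, then 27 and 25.6, and last 28.2 (1 value for the pair). Asns in KO stood at 19.4 and 19.3, then 21 and 18.2, then 21.4 and 21.9, and last 25.2 and 26.1. Asns in dcIDR stood at 18.9 and 16.6, then 20.7 and 20.9, then 26.2 and 24.7, and last 30.2 and 32.4. Both KO libraries were below WT at each of the 4 times. The KO difference was -0.20 ± 0.051 (adjusted p = 0.01) and the dcIDR difference -0.076 ± 0.051 (adjusted p = 0.31). Scaled to spike-in reads, that KO value turned to 0.12 (adjusted p = 0.577), and with no filter on low levels the fall was not called (-0.13, adjusted p = 0.273).

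Of the 10 tRNA synthetases of the set, enzymes that load amino acids onto tRNAs, 6 were higher in KO and none was lower. Gars and Aars rose most on the scale of the library's median gene. Relative to the median gene of their own chromosome, 6 and 8, they stood at 0.17 and 0.23. Lars stood at 0.29 there, Sars at 0.24, Iars at 0.22 and Nars at 0.20. Gars in WT stood at 19.6 and 17.9, then 19.5 and 17.9, then 22.4 and 19.9, and last 21.7 (1 value for the pair). Gars in KO stood at 27.9 and 28.3, then 29.5 and 27.8, then 30.6 and 29.2, and last 32.5 and 31.8. Gars in dcIDR stood at 19 and 18.9, then 18.8 and 18.5, then 21.4 and 20.5, and last 22.7 and 23.8. All 8 KO values of Gars were above every WT value, and the dcIDR values ran within the WT range or just above it. Its difference was 0.57 ± 0.045 (adjusted p = 1.08e-06) in KO and 0.025 ± 0.045 (adjusted p = 0.732) in dcIDR.

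Aars was higher in KO and, with less support, lower in dcIDR. Aars in WT stood at 35.4 and 37.9, then 39.5 and 34.2, then 40.3 and 36.2, and last 38.2 (1 value for the pair). Aars in KO stood at 51.7 and 53.2, then 57.3 and 50.1, then 58.8 and 54.1, and last 55.2 and 61.7. Aars in dcIDR stood at 32.4 and 26, then 30.6 and 26.6, then 32.2 and 31, and last 35.6 and 39.1. Every KO value was above every WT value, and at 10, 20 and 40 min the dcIDR libraries lay below both WT libraries. The difference was 0.56 ± 0.068 (adjusted p = 3.82e-05) in KO and -0.25 ± 0.068 (adjusted p = 0.0153) in dcIDR, and dcIDR minus KO was -0.81 ± 0.064 (adjusted p = 3.85e-07). With spike-in scaling Aars in dcIDR was at -0.075 (adjusted p = 0.812). Its dcIDR call was also lost relative to the median gene of chromosome 8, which was itself at -0.14 in dcIDR (-0.11, adjusted p = 0.262), with quantile normalization (adjusted p = 0.0966), with no filter (adjusted p = 0.218) and without the 10 min libraries (adjusted p = 0.052).

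The other 4 that rose in KO did so by less on the scale of the library's median gene. Lars rose by 0.25 ± 0.041 (adjusted p = 0.000449), Sars by 0.20 ± 0.057 (adjusted p = 0.0149), Iars by 0.17 ± 0.044 (adjusted p = 0.0104) and Nars by 0.16 ± 0.053 (adjusted p = 0.0332). The call for Nars was lost without any 1 of 9 libraries, without the 10 min libraries (adjusted p = 0.0591) and with no filter (adjusted p = 0.0668), and that for Iars with no filter (adjusted p = 0.06). Tars, Wars, Yars and Eprs had differences of 0.055, 0.08, 0.039 and 0.012 and were not called in KO. In dcIDR, Sars was higher by 0.27 ± 0.057 (adjusted p = 0.00339), a call lost on the spike-in scale (0.44, adjusted p = 0.06). Wars was lower there, at -0.20 ± 0.065 (adjusted p = 0.038). The Wars call was lost without any 1 of 12 libraries and, among other settings, relative to the median gene of chromosome 12 (-0.074, adjusted p = 0.448). The charging enzymes outside the set gave 3 higher and 1 lower of 10 cytosolic genes in KO (median -0.0048), led by Rars at 0.49, Kars at 0.33 and Farsa at 0.32. Of 17 mitochondrial synthetases 1 was higher in KO, Cars2 at 0.28, and none was lower. Among all tested genes 14.5% were called higher in KO and 16.0% lower. The values of these genes outside the set are not given relative to their chromosome, and whether they differ from its median gene was not tested. In KO the median gene stood at 0.40 on chromosome 6 and at 0.33 on chromosome 8.

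Among the 5 amino acid transporters, 3 were higher in KO and 1 was lower. Slc7a11, the light chain of the exchanger that brings cystine into the cell, had few reads. Slc7a11 in WT stood at 0.214 and 0.263, then 0.266 and 0.213, then 0.219 and 0.217, and last 0.301 and 0.251. Slc7a11 in KO stood at 0.338 and 0.526, then 0.513 and 0.358, then 0.514 and 0.403, and last 0.574 and 0.536. Slc7a11 in dcIDR stood at 0.447 and 0.237, then 0.152 and 0.178, then 0.193 and 0.114, and last 0.169 and 0.197. The KO values were all above the WT values, whereas in dcIDR the 10 min libraries were level with or above WT and all later ones were below it. The difference was 0.94 ± 0.16 (adjusted p = 0.000375) in KO, 1.92 times WT, and -0.31 ± 0.16 (adjusted p = 0.176) in dcIDR. Its raw reads were 9 to 48 in WT, 19 to 111 in KO and 7 to 38 in dcIDR. Without dcIDR library A at 10 min the dcIDR difference was -0.42 (adjusted p = 0.0434), and without all 10 min libraries -0.56 (adjusted p = 0.0159).

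Slc7a5 encodes the light chain of the exchanger for large neutral amino acids. Slc7a5 in WT stood at 6.01 and 7.76, then 7.7 and 7.32, then 5.58 and 6.18, and last 5.54 and 5.97. Slc7a5 in KO stood at 9.68 and 10.7, then 10.6 and 10.6, then 7.69 and 10.1, and last 9.3 and 11.7. Slc7a5 in dcIDR stood at 8.88 and 7.08, then 5.45 and 5.96, then 6.25 and 5.17, and last 6.38 and 6.21. Its KO values stood above the WT pair at every time, and its dcIDR values fell on both sides of WT. The difference was 0.63 ± 0.083 (adjusted p = 5.33e-05) in KO and -0.025 ± 0.083 (adjusted p = 0.864) in dcIDR.

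Slc3a2, the heavy chain shared by both exchangers, changed less. It was higher in KO by 0.14 ± 0.046 (adjusted p = 0.0391) and lower in dcIDR, at -0.16 ± 0.046 (adjusted p = 0.0256). The KO call was lost without any 1 of 13 libraries and the dcIDR call without any 1 of 3, and on the spike-in scale the dcIDR value turned to 0.022. Without the 10 min libraries neither was called (0.15, adjusted p = 0.0672, and -0.093, adjusted p = 0.244), nor with no filter (adjusted p = 0.0803 and 0.501). The last members of the group carry cationic amino acids. In KO, Slc7a1 had 0.082 ± 0.049 (adjusted p = 0.237) and was not called, and Slc7a3 was lower, at -0.21 ± 0.058 (adjusted p = 0.0125). With spike-in scaling that Slc7a3 difference turned to 0.10 (adjusted p = 0.622), and it was not called with no filter (adjusted p = 0.266).

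The last 6 members act in growth control, the endoplasmic reticulum and secretion, and 3 of them were higher and 1 lower in KO. Herpud1, a membrane protein that helps degrade misfolded proteins of the endoplasmic reticulum, had the largest rise of the 39 on the scale of the library's median gene. Relative to the median gene of its chromosome it stood at 0.63, below Slc7a11 at 0.97. Herpud1 in WT stood at 0.932 and 1.05, then 1.33 and 1.45, then 1.8 and 1.32, and last 1.61 and 1.4. Herpud1 in KO stood at 2.07 and 2.19, then 2.45 and 2.21, then 2.49 and 2.96, and last 3.46 and 3.36. Herpud1 in dcIDR stood at 1.02 and 0.912, then 1.11 and 1.52, then 1.63 and 1.63, and last 1.95 and 1.9. Each KO pair lay above the WT pair of its time and above every other WT value as well, while dcIDR overlapped with WT at 10, 20 and 40 min and lay above it at 60 min. The difference was 0.96 ± 0.08 (adjusted p = 9.13e-07) in KO, 1.95 times WT, and 0.079 ± 0.08 (adjusted p = 0.519) in dcIDR.

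Vldlr, a receptor for lipoproteins, rose in both mutants. Vldlr in WT stood at 0.699 and 0.71, then 0.622 and 0.675, then 0.735 and 0.949, and last 0.73 and 0.916. Vldlr in KO stood at 0.952 and 0.625, then 1.18 and 1.04, then 1.68 and 1.58, and last 2.3 and 2.12. Vldlr in dcIDR stood at 0.816 and 0.706, then 0.91 and 1.07, then 1.21 and 1.31, and last 1.24 and 1.16. At 10 min the 3 genotypes overlapped, and from 20 min on both mutants lay above both WT libraries. The difference was 0.82 ± 0.091 (adjusted p = 1.08e-05) in KO and 0.47 ± 0.091 (adjusted p = 0.00186) in dcIDR, and KO was above dcIDR, with dcIDR minus KO at -0.36 ± 0.091 (adjusted p = 0.0053).

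Genes that restrain growth signals went separate ways. Eif4ebp1, an inhibitor of cap-dependent translation, was higher in KO by 0.29 ± 0.076 (adjusted p = 0.0119). Sesn2, a leucine sensor that restrains mTORC1, was lower, at -0.21 ± 0.05 (adjusted p = 0.00518), and its difference turned to 0.098 on the spike-in scale (adjusted p = 0.656) and was not called with no filter (adjusted p = 0.193). A noncoding gene model, Gm12981, covers 33.0% of its span. Ddit4, another inhibitor of mTORC1, was higher in dcIDR by 0.35 ± 0.077 (adjusted p = 0.00433) and had 0.087 ± 0.077 (adjusted p = 0.442) in KO. Stc2, a secreted glycoprotein, had 0.18 ± 0.076 (adjusted p = 0.102) in KO and -0.089 in dcIDR. Without the 10 min libraries its KO difference was 0.30 (adjusted p = 0.0232).

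Chromosomes 6 and 8 as a whole ran high in KO libraries. The median tested gene was at 0.40 on chromosome 6 and 0.33 on chromosome 8, and below 0 on each other chromosome. A median over a whole chromosome can miss a shift of only part of it, which was not tested. The set has 7 members there: Asns, Mthfd2 and Gars on chromosome 6, and Aars, Slc7a5, Eif4ebp1 and Herpud1 on chromosome 8. Relative to the median gene of their own chromosome, the KO differences were 0.63 for Herpud1, 0.45 for Mthfd2, 0.30 for Slc7a5, 0.23 for Aars and 0.17 for Gars, all still called higher. Eif4ebp1 turned to -0.043 and was not called, and Asns went from -0.20 to -0.59. In all, 21 members were higher and 3 lower on that scale, since Phgdh at 0.27 was now called. The share of all tested genes was not counted on it. Of the 32 members on other chromosomes 15 were higher in the original fit. The cause of the level of both chromosomes was not tested.

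**Figure D3:**
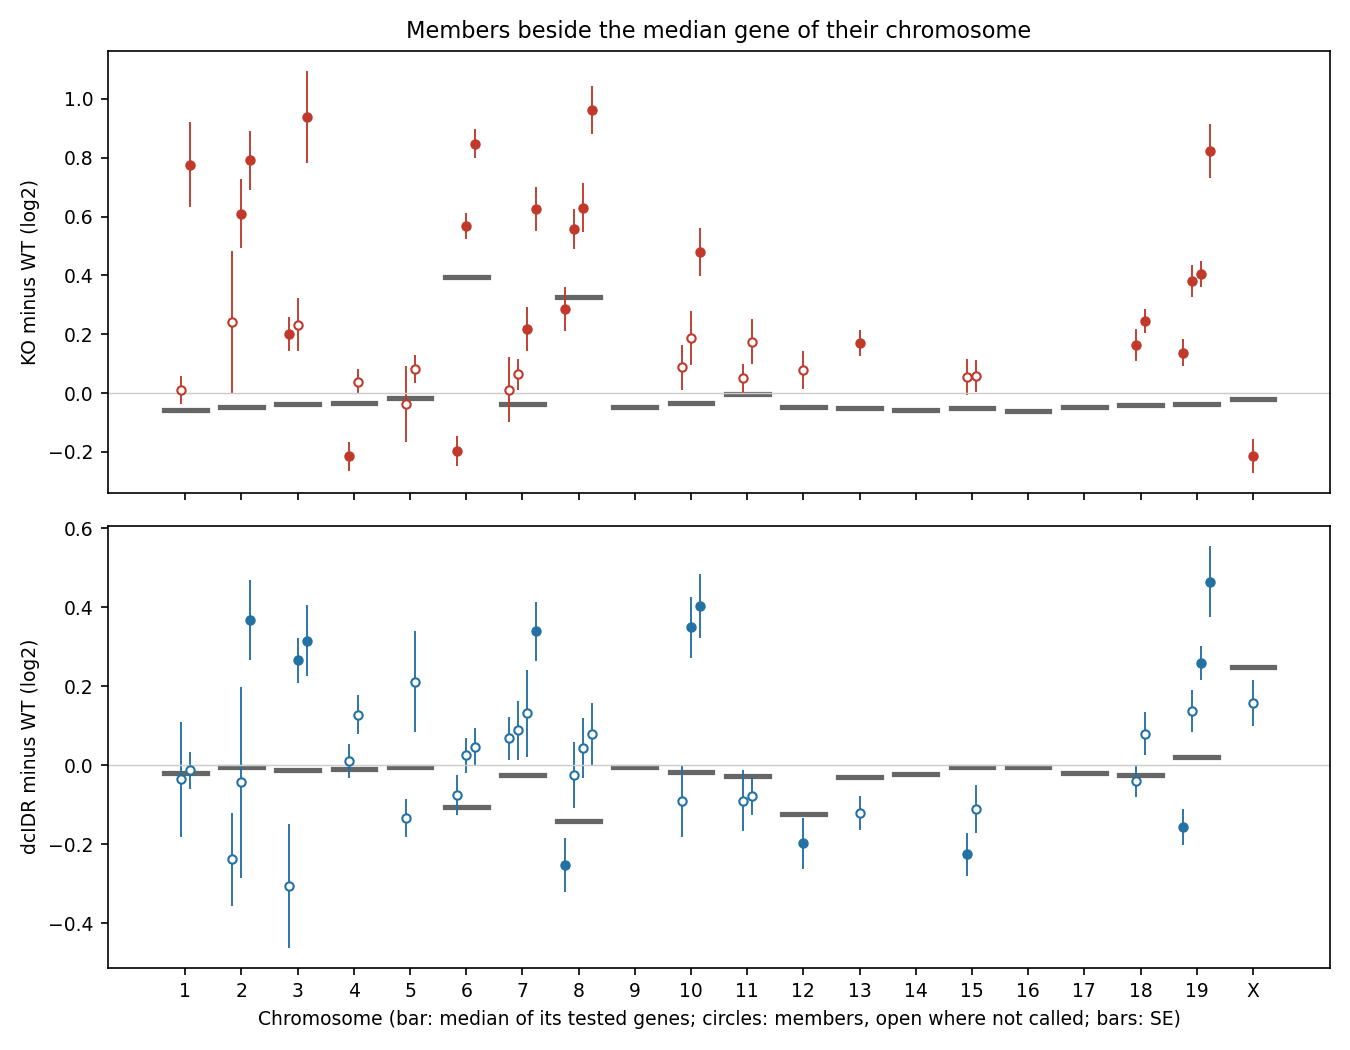
Difference from WT on the log2 scale (y axis; KO above, dcIDR below) by chromosome (x axis). Grey bars are the median of all tested genes of the chromosome, and circles are members with their SE, filled where called. The bars of chromosomes 6 and 8 stand at 0.40 and 0.33 in KO, and members on other chromosomes, such as Slc7a11 on 3 and Vldlr on 19, also lie high.

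Members with the response element in a promoter window and those without it can be set side by side as a description. With it, 10 of 14 were higher in KO and 1 was lower, with a median difference of 0.59 and a range from -0.20 to 0.96. Without it, 7 of 19 were higher and 1 was lower, with a median of 0.18 and a range from -0.21 to 0.85. Both groups hold members that did not pass the test and members that rose: Yars, Pycr1 and Tars carry the element at 0.039, 0.051 and 0.055, and Mthfd2 at 0.85 has none in its window. The groups differ in chromosomes 6 and 8: Herpud1, Aars, Gars and Asns there carry the element, and of the members without it only Mthfd2 lies there. Relative to their chromosome these 4 stood at 0.63, 0.23, 0.17 and -0.59, and Mthfd2 at 0.45. The part of the chromosomes in the difference between both groups was not tested.

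**Figure D4:**
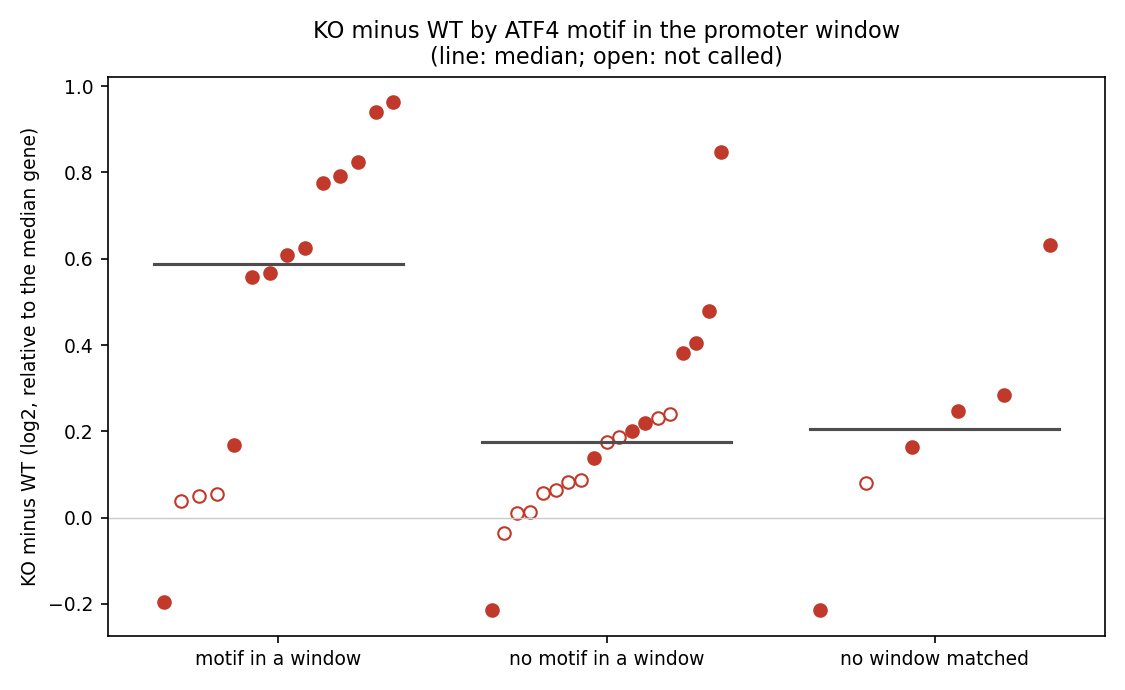
KO minus WT on the log2 scale relative to the median gene (y axis) for members with TGATGNAA in a RefSeq promoter window, without it, and with no window matched (x axis). Points are members, filled where called, and lines are group medians, which were 0.59 with the element and 0.18 without it. The values are not relative to the chromosome.

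In dcIDR cells, 8 of the 39 members were higher than in WT and 4 were lower, beside 10.2% and 15.5% of all tested genes. The median difference was 0.025, with -0.024 for all genes. The 8 that rose were Vldlr, Ddit3, Chac1, Ddit4, Nupr1, Phgdh, Sars and Psat1, and 6 of them were also higher in KO. The 4 that fell were Aars, Atf4, Wars and Slc3a2, and 2 of those, Aars and Slc3a2, had risen in KO. None of the 4 falls passed the test on the spike-in scale, where 6 members were higher and none lower (5.72% and 2.24% of all genes). Both comparisons use the same WT libraries.

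On the median-gene scale the dcIDR chromosomes were shifted too, with the median gene at -0.11 on chromosome 6, -0.14 on 8, -0.12 on 12 and 0.25 on X. Relative to these, 9 members were higher and 2 lower: Mthfd2 at 0.15 (adjusted p = 0.033) was gained, and Aars and Wars were lost. No share of all tested genes was counted beside these.

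The direct comparison of the mutants does not use the WT libraries in the difference. There 24 of 39 members were lower in dcIDR than in KO and 3 were higher, with 22.7% and 21.0% of all genes. The median was -0.24, against 0.0078 for all genes. Slc7a11 differed most, at -1.24 ± 0.16 (adjusted p = 1.74e-05), followed by Herpud1 at -0.88 ± 0.08 (adjusted p = 7.86e-07), Trib3 at -0.85 ± 0.12 (adjusted p = 4.45e-05), Atf3 at -0.81 ± 0.15 (adjusted p = 0.000415), Aars at -0.81 ± 0.064 (adjusted p = 3.85e-07) and Mthfd2 at -0.80 ± 0.048 (adjusted p = 1.56e-08). The 3 members higher in dcIDR were Slc7a3 by 0.37 ± 0.058 (adjusted p = 0.000133), Sesn2 by 0.34 ± 0.047 (adjusted p = 5.52e-05) and Ddit4 by 0.26 ± 0.077 (adjusted p = 0.0135). On the spike-in scale, where the median gene was at -0.13, 12 members were lower and none higher, with 17.1% and 6.58% of all genes. The median gene of chromosomes 6 and 8 was at -0.49 and -0.47 in this comparison, and that of X at 0.29. Relative to the median gene of its chromosome, Herpud1 was at -0.42, Aars at -0.35 and Mthfd2 at -0.31, all still called, whereas Gars at -0.057, Slc7a5 at -0.19 and Slc7a3 at 0.081 (adjusted p = 0.296) were not. Asns was called higher there, at 0.61. On that scale 20 members were lower and 4 higher, with no share of all tested genes counted. The Ddit4 call was lost without the 10 min libraries (0.084, adjusted p = 0.436) and with no filter (adjusted p = 0.0878).

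No member passed limma's F test for a genotype difference that changes with labelling time. In KO 0 of 39 passed (0.00896% of all genes), and in dcIDR 0 of 39 (2.48% of all genes). At an unadjusted p under 0.05 there were 4 members in KO, where 8.36% of all genes were under it, and 7 in dcIDR, with 20.8% of all genes. The lowest adjusted p in KO belonged to Chac1 (0.354), whose difference was 0.58, 0.10, 0.81 and 1.68 at 10, 20, 40 and 60 min. For Vldlr the values were 0.13, 0.77, 0.96 and 1.43 (adjusted p = 0.422). Mthfd2 was high from the first time on, at 0.98, 0.74, 0.81 and 0.86. In dcIDR the lowest adjusted p was that of Slc7a3 (0.063), whose difference went from -0.16 at 10 min to 0.60 at 60 min. In KO, 25 members had a difference above 0 at each of the 4 times, for which the share of all tested genes was not counted.

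Across labelling times, labelled RNA of all 39 members grew on the spike-in scale, as did 99.4% of all genes, by a median of 0.84 per doubling of the minutes over all genes. Relative to the median gene, the mean slope over genotypes was called above 0 for 22 members and below 0 for 6, beside 35.2% and 19.6% of all genes. Regardless of the call, 28 slopes were above 0 and 11 below. Slc7a3 gained fastest, at 0.41 ± 0.024 per doubling (adjusted p = 1.23e-08), then Vldlr at 0.32, Herpud1 at 0.29, Atf3 at 0.28 and Sesn2 at 0.26. The members called as falling behind the median gene were Phgdh at -0.23, Psph at -0.20, Pycr1 at -0.13, Nupr1 at -0.10, Slc7a5 at -0.093 and Eif4ebp1 at -0.079. The Slc7a5 call was lost without any 1 of 9 libraries and the Eif4ebp1 call without any 1 of 18. In the deposited table itself, which pools both libraries, Atf4 stood at 2.13 in WT, 1.71 in KO and 2.95 in dcIDR as log2 of 60 over 10 min, where the median tested gene had 2.10, 1.67 and 2.72.

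Upstream of ATF4, the 20 genes of the eIF2 kinases, eIF2 subunits and exchange factors moved both ways in KO, with 6 higher and 5 lower (median -0.0057). Eif2b2, a subunit of the exchange factor, was at 0.60, Eif2s2, the beta subunit of eIF2, at -0.52, and Eif2ak3, the kinase PERK of the endoplasmic reticulum, at 0.49. In dcIDR 3 were higher and 4 lower, and Eif2ak4, the kinase GCN2 that senses uncharged tRNA, was at 0.33. Of 25 tested targets of ATF4 outside the set, 6 were higher and 4 lower in KO (median 0.054). Hmox1, which encodes a heme oxygenase, was at 0.82, the autophagy receptor gene Sqstm1 at 0.80 and the neutral amino acid transporter gene Slc1a4 at 0.62. In dcIDR 5 of those 25 were higher and 5 lower, with Gadd45a at 0.42 and Got1 at -0.38. Among all tested genes 14.5% were called higher and 16.0% lower in KO, and 10.2% and 15.5% in dcIDR. As for the synthetases outside the set, the values of the named genes are not given relative to the chromosome. Whether they differ from its median gene was not tested.

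Neighbouring stress programmes were counted in the same fit. The XBP1 and ATF6 branches of the unfolded protein response had 9 of 23 genes higher and 1 lower in KO (median 0.13), with Edem1 at 0.57, Canx at 0.49 and Pdia4 at 0.45. In dcIDR 2 were higher and 4 lower. The NRF2 targets had 4 of 10 higher and 2 lower in KO (median 0.19). Slc7a11 and Hmox1 are on that list as well, and Nqo1, a quinone reductase gene, was at 0.73 in KO and -0.66 in dcIDR. The heat shock genes had 4 of 10 higher and 1 lower (median -0.050), with Hspa1a at 1.15. The other genes of folate and serine metabolism had 2 of 12 higher and 6 lower in KO (median -0.15), and Folr1, a folate receptor, fell in both mutants, by 0.53 in KO and 0.46 in dcIDR. These counts stand beside the 14.5% and 16.0% of all genes called higher and lower in KO, and the 10.2% and 15.5% in dcIDR. Neither the counts nor the named genes are given relative to their chromosome. Chromosomes 6 and 8 ran high in KO, with the median gene at 0.40 and 0.33, and their part in these lists was not tested. Stem cell markers moved as well: 1 of 10 was higher and 4 were lower in KO (median -0.16), with Tfcp2l1 at -0.61, and 1 was higher and 2 were lower in dcIDR, with Zfp42 at -0.34. Of 8 tested endoderm markers 2 were higher and 1 lower in KO, with Sparc at 0.38, Lamb1 at 0.37 and Dab2 at -0.34. In dcIDR 1 of them was higher and 5 were lower, with Dab2 at -1.63 and Lama1 at -0.57. Of 4 tested fibroblast markers Fn1 was lower in both mutants, at -0.31 and -0.29, and Pdgfrb higher in dcIDR, at 0.67. The part of these cell type markers in the members' differences was not tested.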

How the data were processed

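EU-labelled RNA was sequenced from 24 libraries. Per the submitters' processing notes, HISAT2, SAMtools and Picard were used with GRCm39. For the read counter, its use of strand and the annotation nothing is stated, so reads of overlapping genes are uncertain, and 19 of the 39 members overlap another annotated gene, 8 of them a protein-coding one. The authors deposited log2 ratios of 20, 40 and 60 min to 10 min for each genotype, scaled to spike-in reads with both replicates combined, per the file headers and values. The columns named ki were taken as dcIDR, the remaining genotype.

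The scaled sum of reads of each pair of libraries was worked out from these log2 values for 100% of lines with a value that is not 0 (largest error 4.2e-15). Where a sum could be divided in several ways (7517 lines for WT at 60 min), the division nearest the pair's median ratio was taken, if no other lay near it. This draws both libraries of such a pair together and can understate the spread behind the p-values. In simulated reads up to 3.03% of WT divisions taken as clear were wrong, pooled over the 4 times. Sums with several divisions arose mostly at 60 min in WT, so the share there may be higher and is not given. The simulated depths stopped below those of the highest members. Splits of 2835 tested genes stayed unclear, nearly all in WT at 60 min. Reads were scaled to 11372 spike-in reads, the median over libraries. A gene was tested where its level averaged 10 or more and 6 or more libraries had reads. Values were log2(level + 1) minus that of the library's median tested gene, fitted with limma 3.58.1 in R 4.3.3, 12 group means and all libraries sharing the spread. This scale understates the change of low genes. Counting error alone limits low members such as Slc7a11 and Cebpb, and no interval is given for it.

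The total of labelled RNA per spike-in read was compared between genotypes by an exact two-sided permutation test stratified by time, adjusted over 3 comparisons. It was higher by 0.30 (log2) in KO than in WT (exact permutation, p = 0.0478, adjusted p = 0.144), by 0.12 in dcIDR than in WT (adjusted p = 0.535), and lower by a difference of -0.18 in dcIDR than in KO (adjusted p = 0.535).

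The members and gene lists were chosen with earlier results of these data known. Values in every library are given for members called with a difference of at least 0.4 in either mutant, and for Atf4, Ddit3, Asns, Trib3 and Chac1. Of each other list, genes named come from the 3 called genes with the largest difference per comparison. Alternatives were the spike-in scale, quantile normalization, no filter, a pseudocount of 10, a trend in limma's prior variance, leaving out the 10 min libraries, the median of each chromosome and each library left out. The table of repeat loci was not used here.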

Additional observations from a re-analysis of the deposited data

How the results depend on the processing

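In KO 14 to 24 members were higher over the alternatives run, and 18 to 21 with 1 library left out. The cause of the changes below was not tested unless the alternative removes members. On the spike-in scale no member was lower in KO (0) or in dcIDR (0), 0 were higher and 12 lower in dcIDR than in KO, and all 39 gained with labelling time, with 0 below. There Asns turned to 0.12, Slc7a3 to 0.10 and Sesn2 to 0.098 in KO, Slc3a2 to 0.022 in dcIDR, and the trends of Nupr1 to 0.70, Phgdh to 0.57, Psph to 0.60, Pycr1 to 0.67, Slc7a5 to 0.71 and Eif4ebp1 to 0.72. With no filter on low levels 0 members were lower in KO, 0 in dcIDR and 0 in the trend, where Nupr1 turned to 0.049, Pycr1 to 0.021, Slc7a5 to 0.057 and Eif4ebp1 to 0.070. Quantile normalization left 0 lower in dcIDR, and a pseudocount of 10 gave 1 member with time dependence in dcIDR. Relative to the chromosome's median gene 2 were lower in dcIDR, and Eif4ebp1 turned to -0.043 in KO and to 0.22 between dcIDR and KO.

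Alternatives chosen after seeing the data test fewer members. Without genes of chromosomes 4, 6, 8, 11 and X, 16 were higher and 0 lower in KO, 2 were lower in dcIDR, and 1 was higher in dcIDR than in KO. The members lower in KO, Asns, Slc7a3 and Sesn2, lie on chromosomes 6, X and 4. They were removed, so that they could not be called. Slc7a3 and Sesn2 drop out of the members higher in dcIDR than in KO for the same reason. With only genes whose reads split clearly in every group, 14 were higher and 1 lower in KO, 0 lower in dcIDR, and 14 lower in dcIDR than in KO.

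Leaving out 1 library at a time gave 3 to 3 members lower in KO, 7 to 9 higher and 2 to 6 lower in dcIDR (2 without WT library A or dcIDR library B at 40 min), 3 to 5 higher (5 without KO library A at 20 min) and 21 to 24 lower in dcIDR than in KO, 0 to 0 with time dependence in KO and 0 to 1 in dcIDR, and 21 to 23 above and 4 to 7 below in the trend. Totals ran from 0.22 to 0.37 for KO, 0.038 to 0.20 for dcIDR and -0.26 to -0.096 between the mutants. The KO total passed without WT library B at 40 min (exact permutation, adjusted p = 0.0139), and without the 10 min libraries the difference of the mutants turned to 0.20. No paired analysis was possible because the deposited values do not show which library carries which replicate number. Members with under 50 reads in some libraries, such as Slc7a11, Cebpb, Atf3 and Chac1, are limited by depth.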
